A study of Gallus gallus with 8 samples.

Results

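Mesenchyme of chicken dorsal skin was compared with epithelium of the same skin at H&H 31, day 7 of incubation. The comparison covers 11155 of the 14642 genes in the deposited table, those whose RPKM, a read count scaled to transcript length and to the mapped reads of a library, reached 1 in at least 2 of the 8 libraries of the series. Of these genes, 10681 also reached that level within the 4 H&H 31 libraries, while 474 did so only with the H&H 35 libraries counted. The rule used levels in either tissue at either stage and not the difference between the tissues.

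The study examined ion channels in elongating feather buds and sequenced both layers of chicken embryo skin before and during elongation. The groups were H&H 31 mesenchyme, H&H 31 epithelium, H&H 35 (day 9) mesenchyme and H&H 35 epithelium, each with 2 libraries that the labels call batch I and batch II and the study calls biological replicates. The labels of these libraries name no treatment and no genetic change. The layers were peeled apart in saline free of calcium and magnesium, and how many embryos went into a library is not given in the sources used here.

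Skin forms from an epithelial sheet and an underlying dermal mesenchyme that exchange secreted signals. In the epithelium, cells are held together by cadherins, desmosomes and tight junctions and filled with keratin filaments. In the mesenchyme, fibroblast precursors lie apart in a collagen matrix, and vessels, nerves and blood cells pass through it. Feather buds arise where epithelial placodes and dermal condensations form together, with WNT, FGF, BMP, SHH and ectodysplasin signals passing between the layers.

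The 4 H&H 31 libraries held 22545802 and 27378919 alignments in mesenchyme and 22050712 and 27163477 in epithelium. Their summed RPKM lay between 326384.8 and 347123.6, and 9879 to 10039 genes reached an RPKM of 1. Read counts of single genes were not used, so errors rest on the spread between the 2 libraries of a group. For the SE and p-value of a difference, that spread was pooled over all 4 groups. It was also drawn toward that of other genes at a similar level. The tissue labels fitted their markers. All 10 tested markers of epithelium were lower in mesenchyme, by log2 differences between -7.15 and -3.3, and all 9 tested markers of dermal mesenchyme were higher in it, by 1.28 to 8.44. The 15 leading genes each way described below were chosen for their difference and for no overlap between the libraries of the layers. Such overlap was absent in 81.7% of all tested genes. The low level of the leading genes in the other layer is therefore a description and no check of the separation. The leading genes of epithelium stood at a median of 0.374% and 0.741% of their epithelial level in mesenchyme batches I and II. Those of mesenchyme stood at 0.189% and 0.166% of their mesenchymal level in epithelium batches I and II.

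Throughout, a difference is mesenchyme minus epithelium in log2(RPKM + 1), fitted with limma over all 8 libraries, and a gene is called higher or lower where its Benjamini-Hochberg adjusted p over the 11155 genes is under 0.05. On this scale the differences of genes near an RPKM of 1 are smaller than their ratios. In bulk tissue, fewer cells of a type and less RNA per cell cannot be told apart.

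At H&H 31 genes differed between the layers in both directions. In mesenchyme 3309 genes were higher, 29.7% of those tested, and 3092 were lower, 27.7%, while 4754 were not called. Each count of a gene list at H&H 31 below is to be read against these shares. Without 1 of the 4 H&H 31 libraries, 2710 to 2904 were higher and 2378 to 2615 lower. Differences of at least 2 on the log2 scale, a factor of 4 in RPKM + 1, were found for 598 genes higher in mesenchyme (5.36%) and 493 lower (4.42%). With a pseudocount of 0.1 in place of 1 these were 1077 and 809 genes. The median difference over all genes was -0.01. It depends on the scaling and was -0.05 with equal-sum scaling and 0.01 with median-ratio scaling. The 6401 called genes had 1 direction within both batches, as did 88.7% of all genes tested. For called genes, the choice of a large difference against the spread of the same libraries makes this likely.

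Many of the large differences were between presence and near absence. Of the 598 genes, 344 had a mean under 1 RPKM in epithelium, and of the 493 genes, 277 had a mean under 1 RPKM in mesenchyme. A gene could pass the filter on level through the layer where it was high. The share of all tested genes under 1 RPKM in a layer is not given here, so these counts are a description. The genes higher in mesenchyme held 6.61% and 6.68% of the summed RPKM of the mesenchyme libraries against 0.513% and 0.465% in epithelium. The genes lower in mesenchyme held 0.648% and 0.660% in mesenchyme against 7.3% and 7.28% in epithelium. Each set therefore made up a similar share of its own layer.

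**Figure D1:**
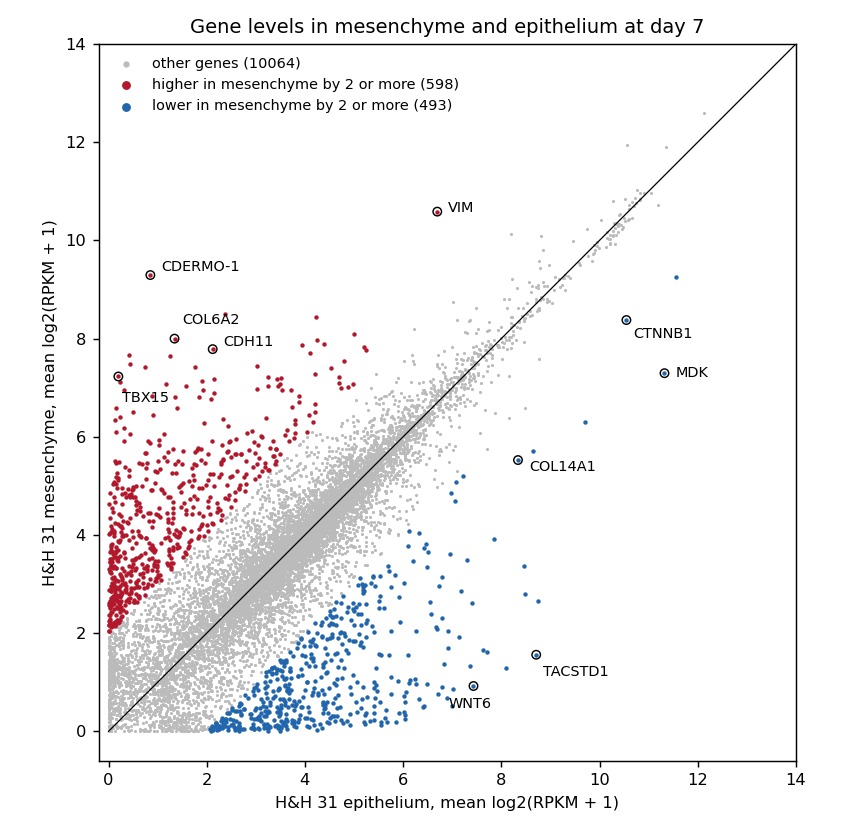
Each point is 1 of 11155 genes, with its mean level in H&H 31 mesenchyme on the vertical axis and in H&H 31 epithelium on the horizontal axis, both in log2(RPKM + 1) over 2 libraries. Genes with a called difference of at least 2 are coloured (598 higher in mesenchyme, 493 lower). Among the genes labelled in the figure, CDERMO-1 and TACSTD1 lie farthest from the diagonal.

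The gene farthest to the mesenchymal side was CDERMO-1 (TWIST2), a basic helix-loop-helix factor of dermis. It stood at 669 and 586 RPKM in mesenchyme and 0.821 and 0.788 RPKM in epithelium, a difference of 8.44 ± 0.11 (SE, adjusted p = 4.24e-10). Its relatives TWIST3 and TWIST1 were also among the 15 leading genes. TWIST3 had 198 and 204 RPKM in mesenchyme and 0.38 and 0.282 RPKM in epithelium (difference 7.25), and TWIST1 had 82.7 and 77.1 RPKM in mesenchyme and 0.122 and 0.0662 RPKM in epithelium (difference 6.21). In each of the 3 twist genes, no epithelial library reached 1 RPKM.

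Homeobox and T-box factors came next. TBX15, which patterns dermis, stood at 152 and 146 RPKM in mesenchyme and 0.164 and 0.134 in epithelium, with a difference of 7.03 (adjusted p = 3.45e-10). PRRX1, a homeobox factor of limb and body wall mesenchyme, had 125 and 150.1 RPKM in mesenchyme and 0.232 and 0.114 RPKM in epithelium (difference 6.88). OSR1, a zinc finger factor of connective tissue, had 79.5 and 88 RPKM in mesenchyme and 0.0895 and 0.256 RPKM in epithelium (difference 6.18). The libraries of the layers were far apart in all 3 genes, which were chosen for such a difference.

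Matrix and surface genes made up most of the remaining leaders. COL6A2, a chain of collagen VI, had 262 and 248 RPKM in mesenchyme against 2.78 and 0.703 RPKM in epithelium, so its trace in epithelium was mostly in batch I. POSTN (periostin) had 189 and 207 RPKM in mesenchyme and 1.19 and 1.6 RPKM in epithelium, and OGN and ASPN, small leucine-rich proteoglycans, had differences of 6.0 and 5.95. TNMD (tenomodulin), a membrane glycoprotein best known from tendon, stood at 162 and 178 RPKM in mesenchyme and 0.463 and 0.928 RPKM in epithelium. The receptor genes PDGFRA, for platelet-derived growth factors, and CNTFR, for ciliary neurotrophic factor, differed by 5.95 and 6.43, and the WNT antagonist gene DKK-1 by 6.64. The only leader that belongs to blood was HBB, a globin gene, with 250.0 and 516 RPKM in mesenchyme and 5.45 and 3.12 RPKM in epithelium. Globin genes are close copies of one another, so the split of reads among them is uncertain.

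On the epithelial side the leader was TACSTD1 (EPCAM), an adhesion molecule of epithelial cells. It stood at 1.13 and 3.09 RPKM in mesenchyme and 391 and 447 RPKM in epithelium, a difference of -7.15 ± 0.24 (SE, adjusted p = 2.27e-08). Its level in mesenchyme batch II was above that in batch I, as were those of KRT14, CDH3, PERP and DSP. CALML3, a calmodulin-like protein of epithelia, had 0.972 and 2.02 RPKM in mesenchyme and 249 and 297 RPKM in epithelium. AP1S3, a subunit of a clathrin adaptor, and VGLL1, a cofactor of TEAD factors, differed by -6.15 and -5.7.

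Junctions, filaments and splicing were all represented among the 15. CLDN1, a tight junction claudin, had 0.439 and 0.432 RPKM in mesenchyme and 122 and 129 RPKM in epithelium (difference -6.47). KRT8, a keratin of simple and embryonic epithelia, had 4.6 and 6.18 RPKM in mesenchyme and 402 and 462 RPKM in epithelium, and ESRP2, which directs epithelial splicing, had 0.447 and 0.778 RPKM in mesenchyme and 112 and 123 RPKM in epithelium. Also among the leaders were the secreted signals WNT6 (-6.51) and WNT7A (-5.8) and the matrix gene VIT (-5.96). For each of these genes the lower epithelial library exceeded the higher mesenchymal one, as the choice of leaders required.

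**Figure D2:**
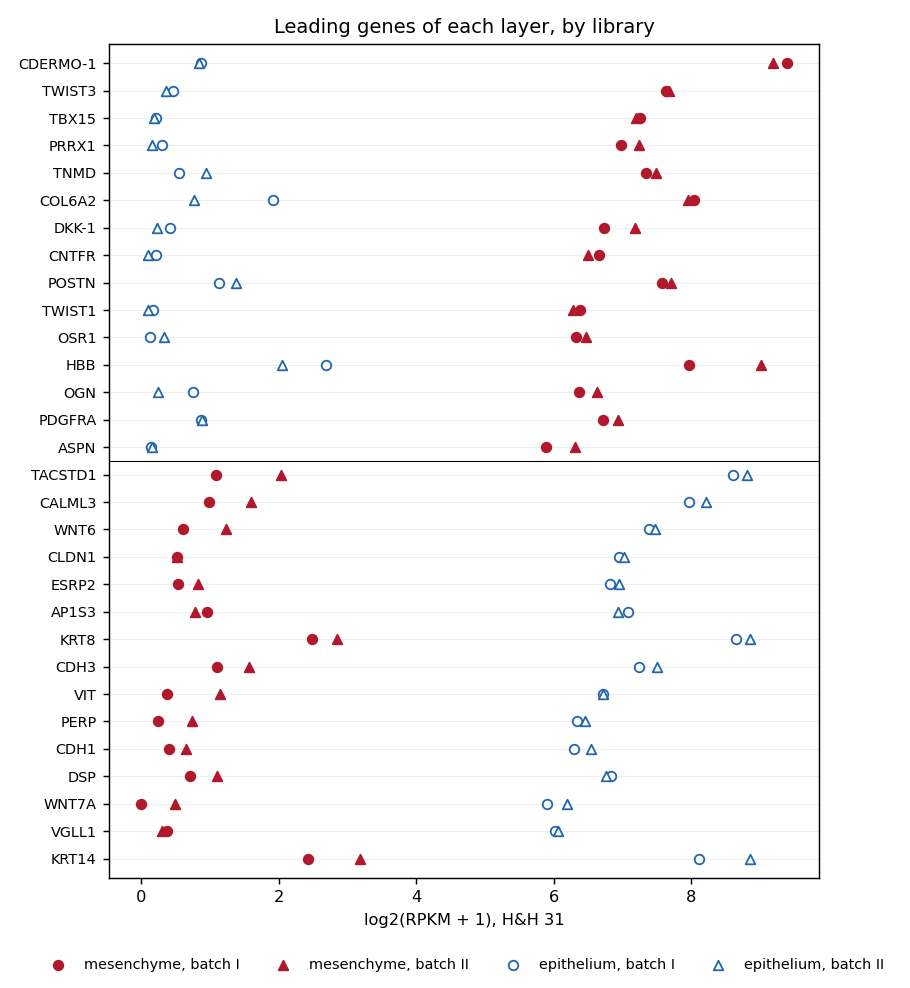
Levels of the 30 leading genes in the 4 H&H 31 libraries, with log2(RPKM + 1) on the horizontal axis and 1 row per gene, the genes higher in mesenchyme above those lower in it. Filled symbols are mesenchyme and open symbols epithelium (circle for batch I, triangle for batch II). CDERMO-1 is at the top and TACSTD1 first under the dividing line. The layers overlap in no row, since only genes without such overlap could be leaders.

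Adhesion genes of epithelia were lower in mesenchyme nearly throughout. Of 31 tested genes 29 were lower, 1 was higher and 1 was not called, with a median difference of -3.05 against -0.01 over all genes. All 8 desmosome genes were lower. DSP (desmoplakin) had 0.629 and 1.15 RPKM in mesenchyme and 113 and 107 RPKM in epithelium, and the desmosomal cadherin gene DSG2 0.207 and 0.379 RPKM in mesenchyme and 37.9 and 36.4 RPKM in epithelium. JUP (plakoglobin), which also serves other junctions, had the smallest difference of the 8, with 50.2 and 57 RPKM in mesenchyme and 62.2 and 71.1 RPKM in epithelium (difference -0.31, adjusted p = 0.0494), and was not called when any 1 of the 4 H&H 31 libraries was left out (adjusted p up to 0.267), nor with the batch number as a block across both stages (adjusted p = 0.0634). The 1 gene higher in mesenchyme was CLDN5, which is known as a claudin of endothelium, with 9.81 and 8.75 RPKM in mesenchyme and 0.0787 and 0 RPKM in epithelium.

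Of 11 tested keratin genes 8 were lower in mesenchyme and 3 were not called (median difference -2.59). KRT14, the type I keratin of basal epidermis, had 4.35 and 8.03 RPKM in mesenchyme and 276 and 460.5 RPKM in epithelium, so its 2 epithelial libraries differed by more than those of KRT8 or KRT19. KRT19 had 8.35 and 10.5 RPKM in mesenchyme and 340.3 and 360.5 RPKM in epithelium, and KRT5, the usual partner of KRT14, had 0.295 and 0.413 RPKM in mesenchyme and 10.6 and 15.4 RPKM in epithelium. The 3 not called were KRT222 at 2.49 and 3.11 RPKM in mesenchyme and 2.21 and 2.54 RPKM in epithelium, and KRT9 and KRT12, which stayed under 1 RPKM in each H&H 31 library. Keratin genes share sequence, so reads may be split among them.

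Transcription factors of surface ectoderm and epidermis followed the same side with 4 exceptions. Of 27 tested, 20 were lower in mesenchyme, 4 were higher and 3 were not called (median difference -3.07). TP63, the master factor of stratified epithelium, had 0.526 and 0.775 RPKM in mesenchyme and 64.1 and 62.7 RPKM in epithelium (difference -5.29, adjusted p = 6.53e-09). The AP-2 genes TFAP2A, TFAP2B and TFAP2C differed by -5.17, -4.99 and -4.52, and the grainyhead-like genes GRHL1 and GRHL2 by -4.51 and -3.43. Those higher in mesenchyme included PITX1, a homeobox factor with roles in mesoderm as well (10.8 and 10 RPKM in mesenchyme and 0.0772 and 0.0316 RPKM in epithelium), and the basonuclin genes BNC1 (1.8) and BNC2 (1.51).

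Twist, snail and zeb factors, which repress epithelial adhesion genes in other settings, were higher in mesenchyme in 7 of 7. ZEB1 had 44.1 and 45.2 RPKM in mesenchyme and 1.33 and 1.26 RPKM in epithelium and SNAI1 32.8 and 38.9 RPKM in mesenchyme and 0.427 and 0.256 RPKM in epithelium, with differences of 4.32 and 4.78. SNAI2 differed much less, with 79.8 and 99 RPKM in mesenchyme and 64.2 and 71.2 RPKM in epithelium (difference 0.39, adjusted p = 0.0172). It was abundant in both layers and was not called without epithelium batch I or without mesenchyme batch II (differences 0.32 and 0.23). Of the splicing regulators, ESRP1 and ESRP2 were lower in mesenchyme (-3.3 and -6.21), and RBFOX2 was higher with a smaller difference (0.69).

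Over all 41 tested transcription factors listed for dermis, 30 were higher in mesenchyme, 6 were lower and 5 were not called (median difference 1.76). PRRX2 had 65.6 and 76.8 RPKM in mesenchyme and 0.188 and 0.293 RPKM in epithelium and IRX5 139 and 153 RPKM in mesenchyme and 9.65 and 11.3 RPKM in epithelium. Those that were lower included LMX1B, EYA1, EYA2, PAX3 and HIC1. LMX1B, a LIM homeobox factor known from dorsal limb mesenchyme, had 1.43 and 1.48 RPKM in mesenchyme and 45.1 and 39.9 RPKM in epithelium. EYA1 and EYA2, transcriptional cofactor genes, were on the same side, with differences of -2.38 and -2.13. ERG, which is counted among the 30, is also an endothelial marker and had 14.7 and 16.3 RPKM in mesenchyme and 0.103 and 0.0561 RPKM in epithelium.

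The dermal matrix list had 53 of 75 tested genes higher in mesenchyme, 11 lower and 11 not called (median difference 1.03). The largest differences among the fibrillar and associated collagens of the list were those of COL6A2, COL6A1 and COL12A1. COL6A1 had 137 and 133 RPKM in mesenchyme and 2.05 and 0.648 RPKM in epithelium, and COL12A1 had 125 and 123 RPKM in mesenchyme and 7.58 and 6.73 RPKM in epithelium. The fibrillar collagen gene COL1A2 was the most abundant of the tested collagens of this group and was shared. It had 1213 and 984 RPKM in mesenchyme and 476 and 421 RPKM in epithelium (difference 1.28, adjusted p = 1.38e-05). COL1A1 was not among the genes tested. COL3A1 had 200.4 and 173 RPKM in mesenchyme and 28.9 and 24.5 RPKM in epithelium.

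Of the 16 fibrillar and associated collagen genes of this list 12 were higher in mesenchyme, 2 were lower and 2 were not called. The 2 lower were COL11A1, a minor fibrillar collagen (-0.52), and COL14A1. COL11A1 was not called without epithelium batch I or without mesenchyme batch II (differences -0.39 and -0.43). COL14A1, which binds collagen fibrils, had 41 and 49.5 RPKM in mesenchyme and 327 and 319 RPKM in epithelium (difference -2.81, adjusted p = 5.91e-08). Other matrix and surface genes lower in mesenchyme were SDC4, a syndecan (-3.05), TNC, tenascin C (-1.5), GPC1, a glypican (-1.48), and CD44, a hyaluronan receptor (-0.98). The other syndecans were higher in mesenchyme. SDC3 had 108 and 107 RPKM in mesenchyme and 3.42 and 3.1 RPKM in epithelium, SDC2 had 242 and 227 RPKM in mesenchyme and 14.3 and 14.5 RPKM in epithelium, and SDC1 had a difference of 0.65.

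Among the other matrix genes, LOX, which crosslinks collagen and elastin, had 36.7 and 41.5 RPKM in mesenchyme and 0.309 and 0.355 RPKM in epithelium, and ELN (elastin) had 11 and 11.9 RPKM in mesenchyme and 0.121 and 0.085 RPKM in epithelium. The proteoglycan gene LUM (lumican) had 232 and 272 RPKM in mesenchyme and 23.8 and 13.4 RPKM in epithelium, and KERA (keratocan) differed by 4.55. DCN (decorin), by contrast, was abundant in both layers and not called, with 305 and 292 RPKM in mesenchyme and 353 and 309 RPKM in epithelium (adjusted p = 0.188). SPARC, a collagen-binding glycoprotein, was abundant in both as well and higher in mesenchyme, with 684 and 698 RPKM in mesenchyme and 434 and 451 RPKM in epithelium.

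Genes of the basement membrane, the sheet between the layers, were split by chain. Of 33 tested genes 11 were higher in mesenchyme, 19 were lower and 3 were not called (median difference -0.55). The shares over all genes were 29.7% higher and 27.7% lower. Which cell types of a layer, vessels included, gave these values was not tested. The collagen IV pair COL4A1 and COL4A2 was higher in mesenchyme, with 19.2 and 22.3 RPKM in mesenchyme and 0.95 and 0.583 RPKM in epithelium for COL4A1. The pair COL4A5 and COL4A6 was lower, with 1.46 and 1.41 RPKM in mesenchyme and 26.5 and 27.2 RPKM in epithelium for COL4A6. Nidogens divided likewise, since NID2 had 24.1 and 25.8 RPKM in mesenchyme and 3.3 and 2.9 RPKM in epithelium and NID1 49.3 and 56.6 RPKM in mesenchyme and 211 and 206 RPKM in epithelium.

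Laminin alpha chains showed the same division. LAMA1, LAMA2 and LAMA4 were higher in mesenchyme (differences 1.46, 0.9 and 1.64), and LAMA3 and LAMA5 were lower (-4.65 and -3.02). LAMA1 was measured in both layers, with 49.1 and 49 RPKM in mesenchyme and 18.7 and 15.8 RPKM in epithelium. LAMB4 had 1.15 and 1.18 RPKM in mesenchyme and 64.4 and 43.3 RPKM in epithelium. Of 8 genes of hemidesmosomes and epithelial integrins 6 were lower in mesenchyme, 1 was higher and 1 was not called. COL17A1 had 0.867 and 1.06 RPKM in mesenchyme and 98.7 and 80.6 RPKM in epithelium, and the integrin subunit genes ITGA6 and ITGB4 differed by -2.84 and -2.54.

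Cadherins were divided between the layers. CDH1 (E-cadherin) had 0.318 and 0.566 RPKM in mesenchyme and 77.8 and 92.4 RPKM in epithelium (difference -5.9), and CDH3 (P-cadherin) 1.15 and 1.97 RPKM in mesenchyme and 149.9 and 180.0 RPKM in epithelium. CDH11, a cadherin of mesenchyme, had 212 and 228 RPKM in mesenchyme and 3.33 and 3.37 RPKM in epithelium (difference 5.66). CDH2 (N-cadherin) had 29.4 and 30.4 RPKM in mesenchyme and 7.76 and 7.47 RPKM in epithelium, a smaller difference of 1.84. All 8 tested integrin genes outside the epithelial set were higher in mesenchyme, from ITGB8 (0.48) to ITGA8 (5.04, with 40.5 and 40.5 RPKM in mesenchyme and 0.358 and 0.167 RPKM in epithelium). Vimentin, the filament of fibroblasts, followed, with VIM at 1478 and 1595 RPKM in mesenchyme and 105 and 101 RPKM in epithelium.

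**Figure D3:**
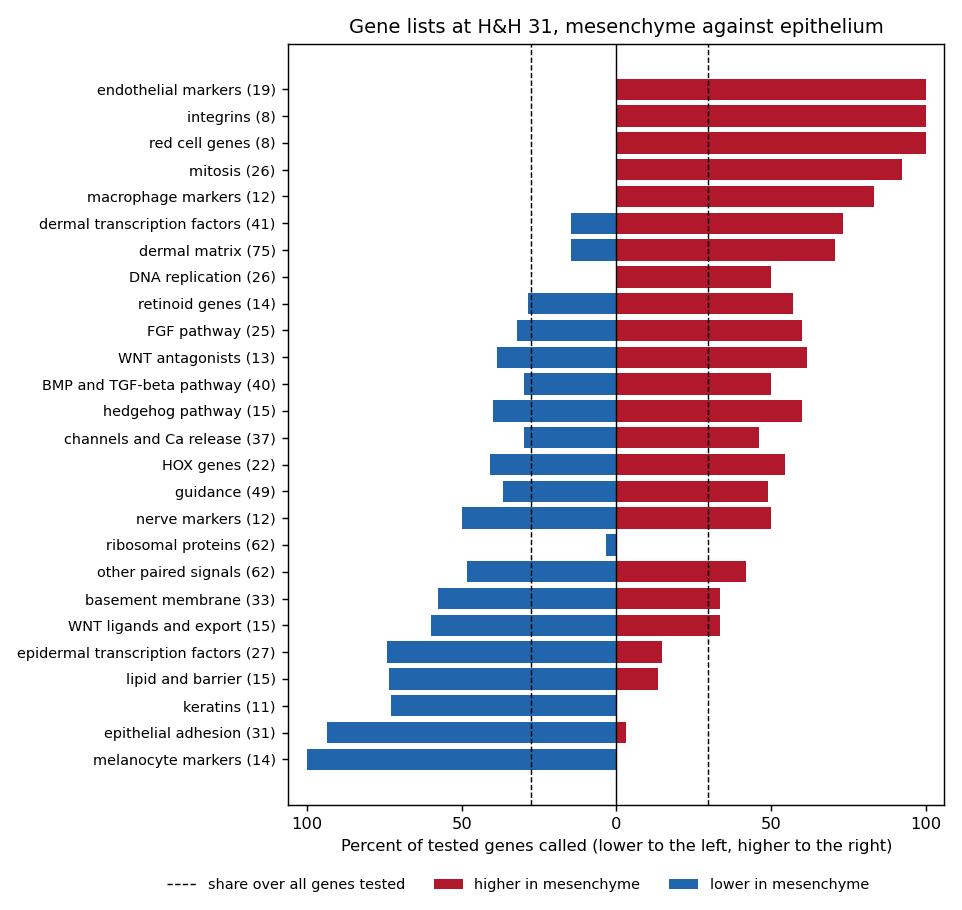
Share of the tested members of each gene list that were higher (right) or lower (left) in H&H 31 mesenchyme than in epithelium, in percent, with the list's number of tested genes in brackets. The dashed lines are the shares over all 11155 genes, 29.7% higher and 27.7% lower. The lists run from endothelial markers and integrins, with each member higher, to melanocyte markers, with each member lower. The integrin list leaves out the epithelial integrin genes, such as ITGA6 and ITGB4, which were lower in mesenchyme and are counted in the basement membrane list.

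Hedgehog genes differed in both directions. SHH, the ligand made by the feather placode, had 0 and 0.101 RPKM in mesenchyme and 5.89 and 7.05 RPKM in epithelium (difference -2.83, adjusted p = 1.39e-07). The receptor gene PTCH1, a target of the pathway, was higher in mesenchyme with 3.96 and 5.13 RPKM in mesenchyme and 2.06 and 2.17 RPKM in epithelium (difference 0.82). HHIP, which binds and restrains the ligand, had 17.2 and 19 RPKM in mesenchyme and 0.102 and 0.083 RPKM in epithelium, and the co-receptor gene BOC had 55.1 and 57.6 RPKM in mesenchyme and 7.66 and 6.81 RPKM in epithelium. GLI2 and GLI3, the nuclear effectors, were higher in mesenchyme by 0.84 and 0.5. DISP1, needed for release of the ligand, was lower by a difference of -1.86. Of 15 tested hedgehog genes 9 were higher, 6 were lower and 0 were left uncalled, beside 29.7% of all genes higher and 27.7% lower. The 12 genes of receptors and transducers were themselves split, with 7 higher and 5 lower, 3 of them by at least 2.

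WNT ligands fell into sets of opposite direction. Of 15 tested genes of ligands and their export, 9 were lower in mesenchyme, 5 were higher and 1 was not called. WNT6 had 0.527 and 1.36 RPKM in mesenchyme and 166 and 177 RPKM in epithelium, and WNT7A had 0 and 0.406 RPKM in mesenchyme and 58.6 and 72.2 RPKM in epithelium. WNT3, WNT3A, WNT4, WNT7B, WNT9B and WNT10A were lower by differences between -5.07 (WNT9B) and -4.29 (WNT3), and each was under 1 RPKM in both mesenchyme libraries. The export receptor gene GPR177 (WLS) was lower too, with 97.6 and 101 RPKM in mesenchyme and 175 and 173 RPKM in epithelium.

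The ligands on the mesenchymal side were fewer. WNT11, a ligand of the beta-catenin-independent branch, had 121 and 125 RPKM in mesenchyme and 2.99 and 2.64 RPKM in epithelium (difference 5.03). WNT2B had 56.3 and 56.1 RPKM in mesenchyme and 14.3 and 13.2 RPKM in epithelium, and WNT5B and WNT9A differed by 2.77 and 2.7. WNT5A did not pass the test and was at 31.5 and 33.1 RPKM in mesenchyme and 26 and 29.5 RPKM in epithelium. ROR1 and ROR2, receptors of that branch, were both higher in mesenchyme, with 27 and 28.8 RPKM in mesenchyme and 1.42 and 0.956 RPKM in epithelium for ROR1.

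Receptors and antagonists of WNT were found on both sides. Of 23 tested genes of receptors and co-receptors, a list that holds RSPO1, 12 were higher in mesenchyme, 10 were lower and 1 was not called. The shares over all genes were 29.7% higher and 27.7% lower. With a minimum RPKM of 5 in 2 libraries, 10 of 21 were higher and 10 lower. FZD10 had 3.61 and 2.87 RPKM in mesenchyme and 104 and 100.1 RPKM in epithelium, and FZD6 differed by -2.43, while FZD1 and FZD2 differed by 1.09 and 1.58. The amplifier RSPO1 had 29.2 and 30.8 RPKM in mesenchyme and 0.345 and 0.0939 RPKM in epithelium, its receptor genes LGR4 and LGR6 were lower in mesenchyme (-1.45 and -2.46), and the third of them, LGR5, was higher with 10.6 and 8.05 RPKM in mesenchyme and 4.05 and 2.28 RPKM in epithelium (difference 1.33). Of 13 tested antagonist genes 8 were higher in mesenchyme and 5 were lower. DKK-1 had 105 and 145 RPKM in mesenchyme and 0.338 and 0.166 RPKM in epithelium, and DKK2 and WIF1 differed by 4.03 and 2.92. On the other side, SOSTDC1 had 9.05 and 11.7 RPKM in mesenchyme and 123 and 201 RPKM in epithelium, and KREMEN1, a receptor of DKK proteins, 33.6 and 38.3 RPKM in mesenchyme and 139 and 159 RPKM in epithelium.

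At the nuclear end, CTNNB1 (beta-catenin) and LEF-1 were both lower in mesenchyme. CTNNB1 had 328 and 335 RPKM in mesenchyme and 1436 and 1559 RPKM in epithelium (difference -2.17, adjusted p = 1.13e-07), and LEF-1 had 80.1 and 99 RPKM in mesenchyme and 206 and 262 RPKM in epithelium. Of the 8 tested effectors and targets 3 were higher, 3 were lower and 2 were not called. SP5 and NKD1 were higher in mesenchyme (3.93 and 3.78), with 75.9 and 70.7 RPKM in mesenchyme and 4.66 and 4.17 RPKM in epithelium for NKD1, and BAMBI was lower (-1.72). AXIN2, a general target, was at 29.8 and 36.9 RPKM in mesenchyme and 27.3 and 37.2 RPKM in epithelium and not called (adjusted p = 0.77).

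Of 10 tested ligand genes of the bone morphogenetic protein (BMP), GDF and activin families, 4 were higher in mesenchyme, 3 were lower and 3 were not called. INHBA, an activin subunit gene, is among the 4 that were higher. BMP2 and BMP4 did not pass the test, and their libraries overlapped between the layers. BMP2 was at 14.5 and 18.4 RPKM in mesenchyme and 13.4 and 24.1 RPKM in epithelium, and BMP4 at 6.04 and 9.88 RPKM in mesenchyme and 3.48 and 6.31 RPKM in epithelium, although BMP4 was called higher without epithelium batch II and without mesenchyme batch I (differences 0.97 and 0.93), and with the batch number as a block within each stage (difference 0.61, adjusted p = 0.0022). BMP7 and BMP6 were lower in mesenchyme, with 11.9 and 20.2 RPKM in mesenchyme and 72.6 and 85 RPKM in epithelium for BMP7 and a difference of -2.25 for BMP6. Antagonists were found on both sides. GREM1 had 27.6 and 39.2 RPKM in mesenchyme and 0.058 and 0.0947 RPKM in epithelium. NOG (noggin) had 1.15 and 2.13 RPKM in mesenchyme and was listed at 0 in both epithelium libraries. FST (follistatin) was lower in mesenchyme, with 3.07 and 4.0 RPKM in mesenchyme and 30.3 and 38.4 RPKM in epithelium, and so was NBL1 (-2.02).

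Targets and receptors of this family showed no single direction. Of 10 tested receptor genes 3 were higher in mesenchyme, 4 were lower and 3 were not called. Of 7 effectors and targets 4 were higher, 2 were lower and 1 was not called. Over all genes, 29.7% were higher and 27.7% lower. Of the ID genes, which BMP signals raise, ID2 was higher in mesenchyme, with 125 and 150.4 RPKM in mesenchyme and 63.6 and 77.3 RPKM in epithelium. The homeobox genes MSX2 and GHOX-7 (MSX1) were lower, with 0.0501 and 0.0802 RPKM in mesenchyme and 3.9 and 6.14 RPKM in epithelium for MSX2 and a difference of -1.6 for GHOX-7. TGFB2, TGFB3 and the receptor gene TGFBR2 were higher in mesenchyme, by 2.18, 1.52 and 1.65. So was INHBA, an activin subunit counted with the ligands above, with 13 and 12.6 RPKM in mesenchyme and 0.0594 and 0.0243 RPKM in epithelium.

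Single pairs of fibroblast growth factor and receptor genes stood in opposite layers, in both directions, but the list as a whole did not. Of 10 tested ligand genes 6 were higher in mesenchyme and 4 lower, and of 5 receptor genes 3 were higher and 2 lower. Of 10 feedback target genes 6 were higher, 2 were lower and 2 were not called. FGF20, which is made by feather placodes, had 0.0325 and 0.408 RPKM in mesenchyme and 44.7 and 52.4 RPKM in epithelium (difference -5.36, adjusted p = 7.77e-08). FGFR1 was on the other side, with 121 and 139 RPKM in mesenchyme and 9.4 and 10.6 RPKM in epithelium. The feedback inhibitor genes SPRY2, SPRY4, SPRED1, SPRED2 and IL17RD were all higher in mesenchyme, with 55 and 63.1 RPKM in mesenchyme and 3.19 and 6.38 RPKM in epithelium for SPRY2. In the reverse direction, FGF10 had 2.86 and 3.35 RPKM in mesenchyme and was listed at 0 in both epithelium libraries, FGF7 differed by 2.16, and FGFR2, the receptor gene whose epithelial form binds both, was lower in mesenchyme with 31.6 and 37.1 RPKM in mesenchyme and 96.2 and 100.2 RPKM in epithelium. The files do not separate isoforms of FGFR2. ETV5, a target of the pathway, was lower in mesenchyme (-1.54), and ETV4 was not called with 12.9 and 15.8 RPKM in mesenchyme and 11.3 and 13.7 RPKM in epithelium.

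**Figure D4:**
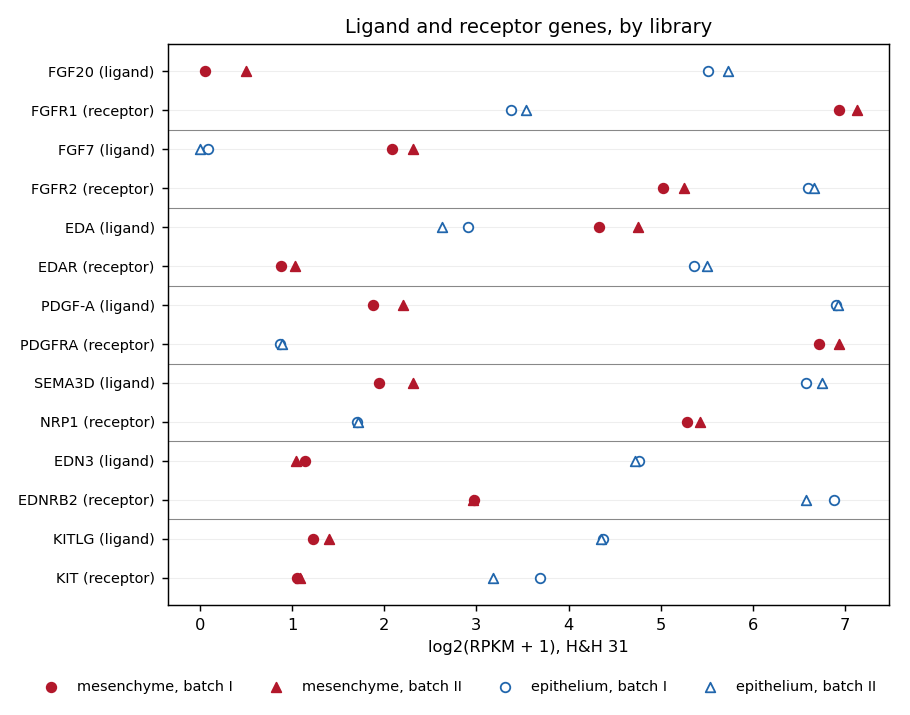
Levels of ligand and receptor genes in the 4 H&H 31 libraries, with log2(RPKM + 1) on the horizontal axis and mesenchyme (filled) and epithelium (open) in each row, circle for batch I and triangle for batch II. Ligand and receptor stand in opposite layers for FGF20 and FGFR1, FGF7 and FGFR2, EDA and EDAR, PDGF-A and PDGFRA, and SEMA3D and NRP1, and in the same layer for EDN3 and EDNRB2 and for KITLG and KIT.

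Of the other paired signals, 11 of 31 ligand genes were higher in mesenchyme and 17 lower, and 15 of 31 receptor genes were higher and 13 lower, so the list as a whole did not place ligands and receptors in opposite layers. Single pairs did stand apart. EDA (ectodysplasin), a signal for placodes, was higher in mesenchyme with 19.1 and 26 RPKM in mesenchyme and 6.52 and 5.16 RPKM in epithelium, and its receptor gene EDAR was lower with 0.836 and 1.04 RPKM in mesenchyme and 40.3 and 44.5 RPKM in epithelium. The adaptor gene EDARADD went with the receptor (-3.59). PDGF-A had 2.67 and 3.62 RPKM in mesenchyme and 119 and 121 RPKM in epithelium, and PDGFB and PDGFC were lower in mesenchyme as well (-2.71 and -1.99). Both receptor genes, PDGFRA and PDGFRB, were higher in mesenchyme, with 104 and 121 RPKM in mesenchyme and 0.829 and 0.846 RPKM in epithelium for PDGFRA. PDGFD differed from the other ligands, with 94.6 and 98 RPKM in mesenchyme and 12.8 and 11.8 RPKM in epithelium.

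NGFR, a receptor of neurotrophins, was higher in mesenchyme with 1.98 and 2.42 RPKM in mesenchyme and 0.0576 and 0.0392 RPKM in epithelium. The heparin-binding factor MDK (midkine) had 156 and 156 RPKM in mesenchyme and 2459.7 and 2668 RPKM in epithelium, while its relative PTN (pleiotrophin) was higher in mesenchyme by 2.94. The chemokine gene JSC (CXCL14) had 76.1 and 79.8 RPKM in mesenchyme and 843 and 814 RPKM in epithelium. Among Notch ligands, JAG2 was lower in mesenchyme with 0.963 and 1.03 RPKM in mesenchyme and 31.8 and 33.2 RPKM in epithelium, and DLL1, a ligand made in feather dermis, was higher with 1.46 and 2.45 RPKM in mesenchyme and 0.0342 and 0.0139 RPKM in epithelium.

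KITLG and EDN3, ligands for pigment cell precursors, were both lower in mesenchyme (-3.06 and -3.66), and their receptor genes KIT and EDNRB2 were lower in it too. EDNRB2 had 6.83 and 6.8 RPKM in mesenchyme and 117 and 94.3 RPKM in epithelium. These receptors are markers of melanocytes, and all 14 tested melanocyte markers were lower in mesenchyme (median difference -2.81). MLANA had 6.27 and 6.31 RPKM in mesenchyme and 169 and 123 RPKM in epithelium, and the pigment enzyme gene TYR 0.591 and 0.31 RPKM in mesenchyme and 13.8 and 8.77 RPKM in epithelium. The summed RPKM of the 14 markers was 29.6 and 29.9 in mesenchyme and 429 and 330.4 in epithelium, and its part in the differences of KIT and EDNRB2 was not tested.

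Of the guidance genes, 11 of 23 ligands were higher in mesenchyme and 10 lower, and 13 of 26 receptors were higher and 8 lower. The shares over all genes were 29.7% higher and 27.7% lower, near that of the lower receptors. The secreted semaphorin genes SEMA3A, SEMA3C, SEMA3D and SEMA3E were lower in mesenchyme, by differences between -4.73 (SEMA3E) and -3.0 (SEMA3A). SEMA3D had 2.83 and 3.97 RPKM in mesenchyme and 94.9 and 107 RPKM in epithelium. Their receptor genes NRP1, NRP2 and PLXND1 were higher in mesenchyme, with 38 and 41.9 RPKM in mesenchyme and 2.25 and 2.29 RPKM in epithelium for NRP1. SEMA3F and SEMA3G ran against the other SEMA3 genes (1.0 and 1.92). NTN1 (netrin) had 15 and 15.8 RPKM in mesenchyme and 0.0421 and 0.00859 RPKM in epithelium, EFNB2 had 3.64 and 4.06 RPKM in mesenchyme and 30.3 and 29.1 RPKM in epithelium, and EPHB1 had 49.3 and 48.6 RPKM in mesenchyme and 5.47 and 5.42 RPKM in epithelium. NRP1, PLXND1 and SEMA3G are also made by endothelium, whose 19 tested markers were all higher in mesenchyme, and its part in their differences was not tested.

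Retinoic acid is made, bound and cleared by dedicated enzymes and carriers. Of 14 tested retinoid genes 8 were higher, 4 were lower and 2 were not called, beside 29.7% of all genes higher and 27.7% lower. ALDH6 (ALDH1A3), a synthesis enzyme, had 37.9 and 37.4 RPKM in mesenchyme and 0.129 and 0.115 RPKM in epithelium (difference 5.11). STRA6, a retinol uptake receptor, had 9.81 and 8.39 RPKM in mesenchyme and 0.153 and 0.0779 RPKM in epithelium, and CRABP-I, a binding protein, 285 and 196 RPKM in mesenchyme and 23.7 and 16.9 RPKM in epithelium. The receptor gene RARB was lower in mesenchyme (-1.39).

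HOX genes, which record position along the body, differed by cluster. All 7 tested HOXB genes were higher in mesenchyme, led by HOXB2 (2.95, with 7.62 and 11.4 RPKM in mesenchyme and 0.361 and 0.319 RPKM in epithelium). In the HOXA cluster, 7 of 10 genes were lower, among them HOXA2 to HOXA7, while HOXA10 and HOXA11 were higher and HOXA9 was at 25 and 38.3 RPKM in mesenchyme and 23.2 and 32.3 RPKM in epithelium and not called. HOXA6 was not called without epithelium batch I or without mesenchyme batch II (differences -0.36 and -0.53). HOXA2 had 7.97 and 8.0 RPKM in mesenchyme and 41.1 and 49.3 RPKM in epithelium (difference -2.36). In the HOXD cluster, HOXD3 and HOXD4 were lower (-3.14 and -3.35) and HOXD8, HOXD9 and HOXD10 were higher, with 5.4 and 6.3 RPKM in mesenchyme and 1.01 and 1.02 RPKM in epithelium for HOXD9. No HOXC gene was among the genes tested. Neighbouring HOX transcripts overlap, and the library kit does not mark strand, so reads shared with overlapping or antisense transcripts cannot be told apart.

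The channel genes the study followed varied in their difference between the layers, and CACNA1H was not called. GJA1 (Connexin-43) was abundant in both layers and higher in mesenchyme, with 492 and 549 RPKM in mesenchyme and 314 and 326 RPKM in epithelium (difference 0.7, adjusted p = 3.28e-04). GJB6, a connexin of keratinocytes, had 0.211 and 0.399 RPKM in mesenchyme and 59.6 and 59.9 RPKM in epithelium. Of 11 tested connexin and pannexin genes 5 were higher, 3 were lower and 3 were not called, beside 29.7% of all genes higher and 27.7% lower. Differences among the 11 ran from -5.55 (GJB6) to 4.34.

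Pore subunits of voltage-gated Ca2+ channels were low in both layers. CACNA1C, of the L type, had 1.72 and 1.85 RPKM in mesenchyme and 0.0138 and 0.0564 RPKM in epithelium (difference 1.43), and CACNA1G, of the T type, had 6.38 and 7.59 RPKM in mesenchyme and 0.207 and 0.21 RPKM in epithelium (difference 2.72). CACNA1D, also of the L type, was lower in mesenchyme with 0.091 and 0.103 RPKM in mesenchyme and 1.89 and 2.09 RPKM in epithelium. CACNA1H was at the same level in both, with 3.23 and 3.16 RPKM in mesenchyme and 3.06 and 3.21 RPKM in epithelium, and was not called (difference 0.02 ± 0.11, SE). Of the auxiliary subunits, CACNG3 had 2.29 and 1.78 RPKM in mesenchyme and 23.3 and 25.3 RPKM in epithelium, and CACNA2D2 was higher in mesenchyme by 1.06.

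Of the genes of store-operated entry, STIM1, the sensor of the endoplasmic reticulum, had 7.98 and 8.22 RPKM in mesenchyme and 11.9 and 14.4 RPKM in epithelium and ORAI1, the pore, had 6.18 and 5.73 RPKM in mesenchyme and 4.52 and 3.83 RPKM in epithelium, with differences of -0.63 and 0.43 (adjusted p = 0.00103 and 0.0146). ORAI1 was not called without epithelium batch II or without mesenchyme batch I (differences 0.33 and 0.38). The IP3 receptor genes were divided, since ITPR1 had 9.68 and 10.5 RPKM in mesenchyme and 1.93 and 1.98 RPKM in epithelium and ITPR3 2.19 and 2.41 RPKM in mesenchyme and 8.66 and 8.64 RPKM in epithelium. KCNMA1, a K+ channel opened by Ca2+ and voltage, had 2.02 and 1.73 RPKM in mesenchyme and 0.233 and 0.181 RPKM in epithelium. Over all 37 tested genes of the channel list, 17 were higher in mesenchyme, 11 were lower and 9 were not called (median difference 0.08). The shares over all genes were 29.7% higher and 27.7% lower. With a minimum RPKM of 5 in 2 libraries, 9 of 25 channel genes were higher and 10 lower, and the median turned to -0.09.

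Barrier and lipid genes of epidermis were mostly lower in mesenchyme, 11 of 15 tested, with 2 higher and 2 not called. CERS3, a synthase of skin ceramides, had 0.944 and 0.648 RPKM in mesenchyme and 16 and 14.1 RPKM in epithelium, and ABCA12, a lipid transporter, had 0.0622 and 0.105 RPKM in mesenchyme and 6.25 and 4.54 RPKM in epithelium. The 2 that were higher encode fatty acid binding proteins, FABP7 (40.4 and 40 RPKM in mesenchyme and 12.8 and 10.8 RPKM in epithelium) and FABP5 (7.55 and 9.59 RPKM in mesenchyme and 1.74 and 1.45 RPKM in epithelium). FABP7 also marks Schwann cell precursors. Ribosomal protein genes served as a set with little difference, with 0 of 62 higher, 2 lower and a median of -0.11. With the batch number as a block within each stage 12 were lower and 1 was higher, and with equal-sum scaling 19 were lower.

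Genes of cell division were higher in mesenchyme at this stage by small amounts. Of 26 tested mitosis genes 24 were higher, 0 were lower and 2 were not called, with a median difference of 0.55, and of 26 replication genes 13 were higher, 0 were lower and 13 were not called (median 0.29). ANLN (anillin), a cytokinesis protein, had 37.8 and 39.8 RPKM in mesenchyme and 18.9 and 18.2 RPKM in epithelium (difference 1.03), PLK1, a mitotic kinase, had 98.2 and 97.1 RPKM in mesenchyme and 57.7 and 58.6 RPKM in epithelium, and MCM6, a subunit of the replicative helicase, had 81.2 and 81.3 RPKM in mesenchyme and 50.4 and 45.4 RPKM in epithelium. The mitosis genes CENPF and ECT2 were not called, with 27.8 and 27.8 RPKM in mesenchyme and 29.3 and 28.6 RPKM in epithelium for CENPF. Without mesenchyme batch II, 7 replication genes in place of 13 were called, and the median was 0.28.

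At H&H 35 the same lists pointed the other way. There 26 of 26 mitosis genes and 24 of 26 replication genes were lower in mesenchyme (medians -1.08 and -1.06), beside 29.1% of all genes higher and 37.1% lower at that stage. The difference between the stages passed its own test, the interaction term of the same fit, for 26 of 26 mitosis genes and 25 of 26 replication genes, beside 42.4% of all genes (4730, and 3651 to 4636 without 1 of the 8 libraries). At a size of at least 2 it passed for 3.29% of all genes. PLK1 at H&H 35 had 40.3 and 45.7 RPKM in mesenchyme and 98.9 and 86.3 RPKM in epithelium (difference -1.09, difference between stages 1.83, adjusted p = 1.77e-05).

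Markers of other cells in the skin differed between the layers by cell type. All 19 tested endothelial markers were higher in mesenchyme (median difference 2.76), with a summed RPKM of 155 and 161 in mesenchyme and 3.99 and 3.11 in epithelium. CDH5, the cadherin of vessels, had 34.5 and 36 RPKM in mesenchyme and 0.206 and 0.0355 RPKM in epithelium, and ENG (endoglin), also an endothelial gene, had 19.8 and 21 RPKM in mesenchyme and 0.178 and 0.145 RPKM in epithelium. All 8 red cell genes tested, a list that does not hold HBB, were higher in mesenchyme, with a summed RPKM of 284 and 372 in mesenchyme and 17.5 and 9.03 in epithelium. Also higher were 10 of 12 macrophage and leukocyte genes, with 11.5 and 10.3 RPKM in mesenchyme and 0.225 and 0.126 RPKM in epithelium for CSF1R, the receptor that defines macrophages. Of the markers of striated muscle, 5 of 7 tested were not called, and MYOD1 and MYOG were not among the genes tested. Smooth muscle and pericyte genes were higher in 6 of 12 at H&H 31, with 2 lower and 4 not called, beside 29.7% of all genes higher and 27.7% lower. At H&H 35 12 of 12 were higher, beside 29.1% of all genes. The difference between the stages passed its test for 10 of these 12 genes, beside 42.4% of all genes. Of 6 cartilage and bone genes 3 were higher at H&H 31, 1 was lower and 2 were not called, beside the same H&H 31 shares of all genes.

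Of 12 tested nerve markers 6 were higher in mesenchyme and 6 were lower. NEFM and NEFL, neurofilament subunits of neurons, were lower in mesenchyme, with 0.897 and 0.84 RPKM in mesenchyme and 26 and 33 RPKM in epithelium for NEFM, while GAP43 and DCX, of growing and migrating neurons, were higher, with 13.6 and 9.94 RPKM in mesenchyme and 0.032 and 0 RPKM in epithelium for GAP43. SOX10, shared by melanocytes and Schwann cells, had 8.67 and 9.17 RPKM in mesenchyme and 20.5 and 17.3 RPKM in epithelium. By neurofilament protein staining, the study found few neurites, and those only in the mesenchyme below elongating buds. For NEFM, NEFL, GAP43, DCX and SOX10 the cell type behind the value was not tested.

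Most of the large H&H 31 differences were also found at H&H 35. Of the 598 genes higher in mesenchyme by at least 2, 570 were also called higher at H&H 35, and of the 493 lower, 440 were also called lower. Over all 11155 genes, 29.1% were higher and 37.1% lower at H&H 35. Over all called genes, 2245 were higher at both stages, which is 67.8% of those higher at H&H 31 and 69.2% of those higher at H&H 35, and 2067 were lower at both, 66.8% and 49.9%. In opposite directions, 377 genes were higher in mesenchyme at H&H 31 and lower at H&H 35, and 212 the other way round. The stages share no library in these comparisons, but they share the estimate of the spread.

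Among genes lower in mesenchyme at H&H 31 and higher in it at H&H 35 was F10 (coagulation factor X). At H&H 31 it had 1.38 and 1.23 RPKM in mesenchyme and 9.34 and 7.28 RPKM in epithelium, and at H&H 35 18.9 and 11.6 RPKM in mesenchyme and 0.916 and 0.947 RPKM in epithelium (difference between stages -5.04, adjusted p = 8.6e-06). FST, the BMP and activin antagonist, had 18.7 and 19.7 RPKM in mesenchyme and 8.39 and 10.2 RPKM in epithelium at H&H 35, against 3.07 and 4.0 RPKM in mesenchyme and 30.3 and 38.4 RPKM in epithelium at H&H 31. CPZ, OPN4-1 and THSD4 behaved likewise, with differences below -2 at H&H 31 and above 1 at H&H 35.

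In the opposite set, NPNT (nephronectin), a ligand of the integrin ITGA8, had 122 and 129.6 RPKM in mesenchyme and 24.9 and 26.1 RPKM in epithelium at H&H 31, and 32.6 and 34.7 RPKM in mesenchyme and 47.1 and 50.4 RPKM in epithelium at H&H 35. Its differences were 2.26 and -0.52. DRAXIN, a repellent of axons, had differences of 2.01 at H&H 31 and -1.37 at H&H 35. NECAB1, a Ca2+-binding protein of neurons, had 2.57 and -1.5, and CPA6, TNFSF10 and ST6GAL1 were also in this set.

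**Figure D5:**
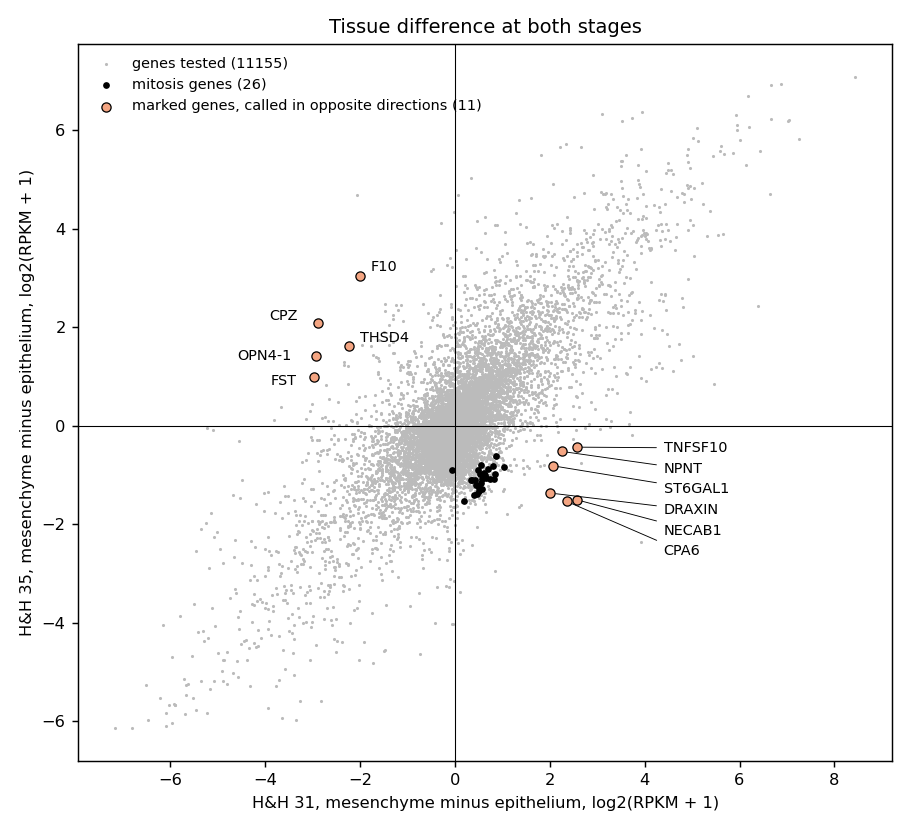
The tissue difference of each of 11155 genes at H&H 31 (horizontal axis) against that at H&H 35 (vertical axis), both mesenchyme minus epithelium in log2(RPKM + 1). Marked are 11 of the 25 named genes called in opposite directions at the stages, which lie in the upper left (F10, FST and others) and lower right (NPNT, DRAXIN and others), and the 26 mitosis genes (dark points) lie below 0 on the vertical axis, between -0.06 and 1.03 on the horizontal one.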

How the data were processed

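RNA was extracted with Trizol, and libraries made with a TruSeq kit that does not mark strand were read single-end. Per the labels of the deposited table, its values are RPKM per gene, the submitters' processing notes name TopHat2, Partek and the galGal4 build without versions, and the gene annotation is not given in the sources used here. The authors had already scaled each value to mapped reads and transcript length, so counts per gene and their depth were not used. The filter kept genes that reached an RPKM of 1 in 2 or more libraries. Levels were tested as log2(RPKM + 1) with limma 3.58.1 in R 4.3.3, with 4 group means over 8 libraries, a trend in the prior variance and Benjamini-Hochberg adjustment over 11155 genes. The fit was tried on simulated data in which few genes differed between the layers, unlike these data. That trial is no check of the calls reported here. An exact permutation test of 2 against 2 libraries was not run, since it cannot reach the 0.05 threshold. The study calls the libraries of a group biological replicates, but the labels do not say that they came from separate embryos, so p-values measure the spread between these libraries, which may be technical.

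The libraries share the batch numbers I and II in the labels, which pair the layers. Deviations from the group means correlated across genes between the layers with r of 0.194 at H&H 31 and 0.316 at H&H 35. Alternatives covered the pseudocount, the filter on low values, 3 scalings, the replicate block, the variance model and each library left out.

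The gene lists and the named genes were chosen with earlier results of these data known. The rule named the 15 genes with the largest difference each way. These had a mean of at least 5 RPKM in the higher layer and no overlap between the libraries of the layers. Also named were up to 4 called and 2 uncalled members of each list or role, their partners and the channel genes of the study. The rule added 6 genes each way called in opposite directions at the stages. Of 256 named genes, 94 fell outside the parts on size, on channels and on opposite directions, and are partners or were chosen after their values were seen. Names follow the table, with synonyms from RefSeq. Some genes that the rule names are not reported here, and promoter sequences were not analysed here.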

Additional observations from a re-analysis of the deposited data

Results flagged for a closer look

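In the following genes the tissue difference at H&H 31 was at least 2 above or below that at H&H 35 on the log2 scale, and the difference between the stages passed its own test (the interaction term of the limma fit, adjusted p under 0.05). Each value is the H&H 31 difference minus the H&H 35 difference. Of 256 named genes 169 passed that test, and 50 of these reached a size of 2, against 42.4% and 3.29% of all genes tested. Some of the named genes were chosen for such changes, so these counts are a description. In all, 25 named genes were called in opposite directions at the stages. Called in opposite directions at the stages were F10 (-5.04), CPZ (-4.96), OPN4-1 (-4.32), FST (-3.94), THSD4 (-3.85), NECAB1 (4.07), CPA6 (3.89), DRAXIN (3.38), TNFSF10 (3.01), ST6GAL1 (2.88), NPNT (2.78), BMP6 (-3.09), TGFB3 (2.35), NBL1 (-2.60), PDGFB (-3.55), SEMA3A (-3.44), HIC1 (-3.22), NID1 (-3.59), TNC (-3.41) and SDC1 (2.40). Of the other genes, ligands and antagonists gave SHH (2.75), WNT11 (3.60), WNT4 (-2.44), WNT9B (-2.81), FGF20 (-3.25), BMP4 (-2.06), SOSTDC1 (-3.93), DLL1 (-2.52), PDGF-A (-2.08), MDK (-2.30), SEMA3C (-2.71) and SEMA3D (-4.25). Receptor genes and the WNT target SP5 gave EDAR (-3.39), NGFR (-3.02), LGR6 (-2.17) and SP5 (2.07). Transcription factor genes gave TFAP2A (-2.27) and TFAP2C (-3.06). Matrix and filament genes gave POSTN (3.94), COL12A1 (-2.44), COL14A1 (-2.31), LUM (-2.52), LAMA2 (-3.18), LAMB4 (-2.31) and KRT5 (2.63). The remaining genes were GAP43 (2.59), NEFL (-2.96), NEFM (-2.65), CACNG3 (-3.36) and AP1S3 (-2.10).

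The semaphorin genes SEMA3A, SEMA3C and SEMA3D, all lower in mesenchyme at H&H 31, had tissue differences of 0.44, -0.29 and -0.30 at H&H 35. No cause of any of these differences was tested, and stage cannot be told apart from anything else that differed between the libraries of the stages.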

How the results depend on the processing

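With 2 libraries a group, the error of each level is known only roughly, and counts of calls fell when a library was left out. Without 1 of the 4 H&H 31 libraries, 2710 to 2904 genes were higher in mesenchyme and 2378 to 2615 lower, with 595 to 607 and 484 to 499 past the log2 difference of 2. Under the other alternatives the counts were 2610 to 3603 higher and 2482 to 3475 lower. A pseudocount of 0.1 raised the large differences to 1077 higher and 809 lower, since it widens the differences of genes near 0. With the replicate block within each stage, which keeps the pairing by batch, 3603 genes were higher and 3475 lower at H&H 31, 3467 higher and 4520 lower at H&H 35, and 5586 had a difference between the stages, against 4730 without the block. None of the 243 called genes named here changed direction, and 244 of 256 named genes kept their direction and side of the threshold in each alternative tried for them. Leaving out a single H&H 35 library was not tried for these genes. Among uncalled genes, AXIN2 turned to -0.0036 under quantile normalization and lay between -0.16 and 0.27 without a library, and CACNA1H turned to -0.018 with equal-sum scaling and -0.030 with quantile normalization. Without 1 library, differences ranged between -0.0065 and 0.047 for CACNA1H, -0.53 and 0.27 for BMP2, -0.13 and 0.47 for HOXA9, and -0.096 and 0.033 for KRT9. Of 62 ribosomal protein genes, 2 were lower as reported, 19 with equal-sum scaling and 14 with quantile normalization. The mitosis genes at H&H 35, tried after the data had been seen, were lower in 26 of 26 under 3 scalings and without each H&H 35 library, and replication genes in 23 or 24 of 26, with 1 gene higher under median-ratio scaling.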
